A study of Mus musculus with 20 samples.

Results

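The genes described here are the 8 Smad genes of the mouse (Smad1, Smad2, Smad3, Smad4, Smad5, Smad6, Smad7 and Smad9), looked up by symbol among the 54838 Ensembl genes counted in each ovary library. All 8 were found and all 8 passed the filter on low counts in every comparison. The study asked how the ovary of FL1, a mouse line selected over many generations for litter size and litter weight, differs from that of the unselected ctrl line. The ctrl mice share their outbred founders with FL1 and were mated in rotation instead of by performance, so the groups differ by breeding history and stage, and the labels name no introduced allele and no treatment. Females of 77 days were staged by vaginal smears, and their ovaries were freed of fat and oviduct before RNA extraction. Each of the 4 groups, which are both lines in estrus and both lines in diestrus, had 5 libraries, and each library came from 1 animal. Replicate numbers only order the labels within a group, and libraries with the same number come from different animals. The source name in the labels gives FL1 for every library, ctrl included, and was not used.

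SMAD proteins carry signals of the TGF-beta family from receptors at the cell surface to the nucleus. Receptors for bone morphogenetic proteins (BMP) phosphorylate SMAD1, SMAD5 and SMAD9, and receptors for activin, TGF-beta and GDF9 phosphorylate SMAD2 and SMAD3. The phosphorylated proteins bind the common partner SMAD4 and act on target genes, while SMAD6 and SMAD7 inhibit the pathway, SMAD6 mainly on the BMP side. In the ovary these routes serve the growth of granulosa cells, the signals of the oocyte to its surrounding cells and the formation of the corpus luteum. Since activity is set by phosphorylation, a transcript level is not a measure of signalling.

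The reads came from a 3' mRNA-Seq kit that starts from the poly(A) tail, and long transcripts therefore do not collect more reads than short ones. Levels are given as CPM (each library's counts rescaled to a common total, with TMM factors over the 20 libraries), and a fold change is given as log2FC with its standard error (SE). Called changed are genes for which edgeR's quasi-likelihood test gave an adjusted p (Benjamini-Hochberg, over all tested genes) no higher than 0.05. Total counts ran from 5991223 to 10352718 per library. No pair of libraries of a group was alike within counting noise, since the chi-square per gene was 6.32 to 46.6 over the 40 pairs. Markers of granulosa, luteal, stromal, endothelial and oocyte lists were counted in every library with the exception of Amh (0 counts in 11 libraries and at most 6 in any), Insl3 (0 counts in 17 libraries and at most 3 in any) and the oocyte factor Figla (0 counts in 1 library). Oviduct and fat markers were present in part: Krt7 (27 to 202 counts), Wfdc2 (4 to 25), Plin1 (86 to 471) and Cfd (2 to 377) were counted in every library, whereas Pax8 was at 0 in 9 libraries, Ovgp1 in 5, Foxj1 and Adipoq in 3 each, Retn in 1 and Lep in 17. In such bulk tissue, fewer cells of a type and less RNA per cell cannot be told apart.

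The 8 genes lie on 5 chromosomes of the GRCm38 build. Smad1 spans positions 79338395 to 79399518 of chromosome 8 on the minus strand. Smad3 (63646767 to 63757994) and Smad6 (63953076 to 64022059) are both on the minus strand of chromosome 9. Smad5 spans 56703010 to 56742377 of chromosome 13 and Smad9 spans 54755582 to 54801257 of chromosome 3, both on the plus strand. No expressed gene shares an exon with any of them in the GENCODE M21 annotation, and no other gene shared 50 or more of the 31-base words from the last 300 bases of their transcripts, so no near-identical copy was found for any of the 8.

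RefSeq promoter sequences of the GRCm38.p6 build were at hand for Smad1, Smad3, Smad5, Smad6 and Smad9, 7 promoters in all, each taken from 250 bases before the transcript start to 10 bases from the start on. They were searched on both strands for GTCTAGAC, the palindrome that SMAD3 and SMAD4 bind, for GGCGCC, a GC-rich SMAD element, and for CAGAC or its complement GTCTG, none of which overlapped another of these motifs. GTCTAGAC was found in Smad6 alone, beginning 4 bases before the start, against 0.177% of 32851 promoters of this length. GGCGCC was found once in Smad9 and once in 1 of the 3 Smad5 promoters, against 9.96% of all promoters, and CAGAC once in another Smad5 promoter, against 44.0%. A match is a run of letters and not a binding site. The promoter of Smad1, the member with the widest difference between groups, and that of Smad6, with the palindrome in capitals, read 5′ to 3′ as follows, Smad1 from chr8:79399419-79399678 and Smad6 from chr9:64022050-64022309, both on the minus strand.
Smad1: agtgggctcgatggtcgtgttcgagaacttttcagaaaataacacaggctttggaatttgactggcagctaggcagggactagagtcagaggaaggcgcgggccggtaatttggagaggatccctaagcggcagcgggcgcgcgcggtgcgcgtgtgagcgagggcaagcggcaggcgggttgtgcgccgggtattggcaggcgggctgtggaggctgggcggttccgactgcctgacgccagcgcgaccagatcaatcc
Smad6: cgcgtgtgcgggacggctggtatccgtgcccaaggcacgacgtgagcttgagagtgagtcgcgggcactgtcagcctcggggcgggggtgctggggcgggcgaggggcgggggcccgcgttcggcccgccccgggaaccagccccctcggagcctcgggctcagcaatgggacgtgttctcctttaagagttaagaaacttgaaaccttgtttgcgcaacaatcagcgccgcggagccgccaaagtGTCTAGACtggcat

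Per 3' end, the co-SMAD was the most abundant of the family. Smad4 had a mean of 155 CPM over the 20 libraries and Smad5 a mean of 139.6 CPM, and Smad4 exceeded Smad5 in 14 of 20. Smad3 followed at 85.5 CPM and Smad1 at 58.2 CPM, then Smad2 at 28.2 CPM and Smad7 at 25.7 CPM, and Smad6 (9.85 CPM) and Smad9 (7.81 CPM) were the lowest. The pairs next to each other in this order were not all separated: Smad2 exceeded Smad7 in 12 of 20 libraries and Smad6 exceeded Smad9 in 15 of 20, whereas Smad5 exceeded Smad3, Smad1 exceeded Smad2 and Smad7 exceeded Smad6 in 20 of 20. The order was not the same in each group. In ctrl in estrus Smad5 stood above Smad4 in 4 of 5 libraries, and in FL1 in estrus Smad4 stood above Smad5 in 5 of 5. Smad3 exceeded Smad1 in all 5 libraries of each of the other 3 groups, and in FL1 in diestrus it did so in 2 of 5. Over all libraries the level varied least for Smad5, with a coefficient of variation of 7.94%. It varied most for Smad1, with 31.2%, close to Smad9 with 30.1% and Smad7 with 29.7%.

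**Figure D1:**
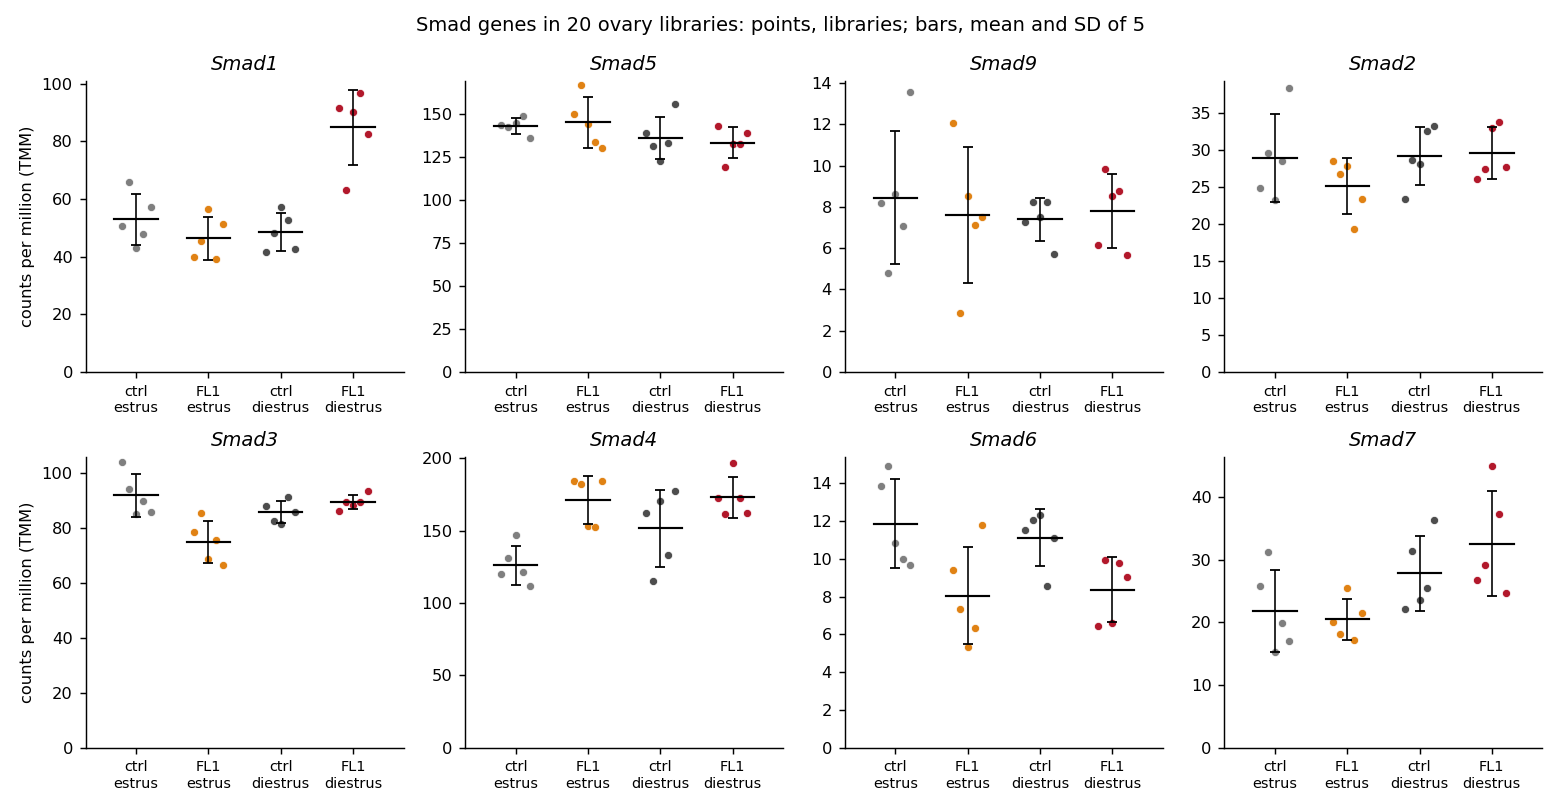
Level of each Smad gene in CPM (vertical axis, from 0, with its own scale per panel) in the 20 ovary libraries by line and stage. Points are libraries, and bars are the mean and SD of 5. Smad1 in FL1 in diestrus sits between 63.2 and 96.9 CPM against at most 66.0 CPM in any library of the other groups, and Smad4 in FL1 in estrus sits above all ctrl libraries in estrus.

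Of the BMP-regulated SMADs, Smad1 had its highest level in FL1 in diestrus, and Smad5 and Smad9 passed the test in no comparison. The FL1 libraries in diestrus held 91.5, 63.2, 90.1, 96.9 and 82.6 CPM of Smad1. The ctrl libraries in diestrus held 41.8, 48.1, 57.3, 52.7 and 42.8 CPM, so the lines did not overlap in this stage. In estrus the values were 50.5, 66.0, 42.9, 48.0 and 57.3 CPM in ctrl and 39.8, 45.4, 56.5, 39.2 and 51.3 CPM in FL1, and the lines overlapped over most of their range. The lowest FL1 library in diestrus, at 63.2 CPM, lay below the highest ctrl library in estrus, at 66.0 CPM. The fitted change between the lines in diestrus was 1.75-fold (log2FC 0.81, SE 0.13, 95% interval 0.54 to 1.07, adjusted p = 0.00220), and leaving out any 1 library kept it between 0.75 and 0.90 with an adjusted p of at most 0.00872. The paper had also listed Smad1 as higher in FL1 in diestrus, from these same libraries and by qPCR. Its qPCR estimate lay above the interval of 0.54 to 1.07. In estrus the interval of the log2FC between the lines ran from -0.48 to 0.11. Within FL1, Smad1 rose from estrus to diestrus by a log2FC of 0.87 (SE 0.13, adjusted p = 0.000220, higher in all 5 diestrus libraries than in any of the 5 estrus libraries). Within ctrl, the log2FC between the stages was -0.12 (SE 0.14, adjusted p = 0.754). The comparisons within FL1 and within diestrus share the 5 FL1 libraries in diestrus. The difference of the line effect between the stages was 0.99 on the log2 scale (95% interval 0.59 to 1.39) and did not pass the threshold over 14154 genes (adjusted p = 0.0535). It passed in 2 of 5 alternatives, by DESeq2 (adjusted p = 0.00201) and with a filter of at least 1 count in total (0.0210). The other alternatives gave an adjusted p of up to 0.0825. With a library left out it passed in 2 of 20 fits. These were the fits without FL1 replicate 3 in estrus (0.0271) and without FL1 replicate 2 in diestrus (0.0248). The remaining fits gave an adjusted p of up to 0.139.

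Smad5, which shares the receptors of Smad1, was the steadiest member. Its means were 143 ± 4.66 CPM in ctrl in estrus, 145 ± 14.6 CPM in FL1 in estrus, 136 ± 12.2 CPM in ctrl in diestrus and 133 ± 9.07 CPM in FL1 in diestrus (SD, n = 5 each), and all 20 libraries lay between 119 and 167 CPM. The 4 log2FC of Smad5 ran from -0.12 to 0.02, and the 95% interval in diestrus between the lines, -0.22 to 0.15, leaves out a change of the size seen for Smad1. Smad9 rested on few reads, with 19 to 82 counts per library. Its levels ran from 2.86 to 13.6 CPM, and its largest log2FC was -0.18 (SE 0.26, between the stages in ctrl). The 95% intervals of its log2FC between the lines ran from -0.87 to 0.58 in estrus and from -0.38 to 0.53 in diestrus. Between the stages they ran from -0.75 to 0.38 in ctrl and from -0.59 to 0.66 in FL1. A change within the interval of a comparison is not left out there.

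Within the BMP-regulated group, the share that came from Smad1 was 25.8% ± 3.60 in ctrl in estrus, 23.3% ± 3.48 in FL1 in estrus, 25.3% ± 3.84 in ctrl in diestrus and 37.4% ± 2.98 in FL1 in diestrus (SD, n = 5 each, of the summed CPM of Smad1, Smad5 and Smad9). The 5 libraries of FL1 in diestrus held 32.8% to 40.7%, and the highest share in the 15 other libraries was 30.9%. Smad5 held 59.1% ± 2.66 in FL1 in diestrus and between 70.1% and 72.8% on average in the other 3 groups. The ratio of Smad1 to Smad5 CPM was 0.634 ± 0.0777 in FL1 in diestrus, against 0.361 ± 0.0762 in ctrl in diestrus. Such a ratio within a library does not depend on the scaling of the libraries.

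**Figure D2:**
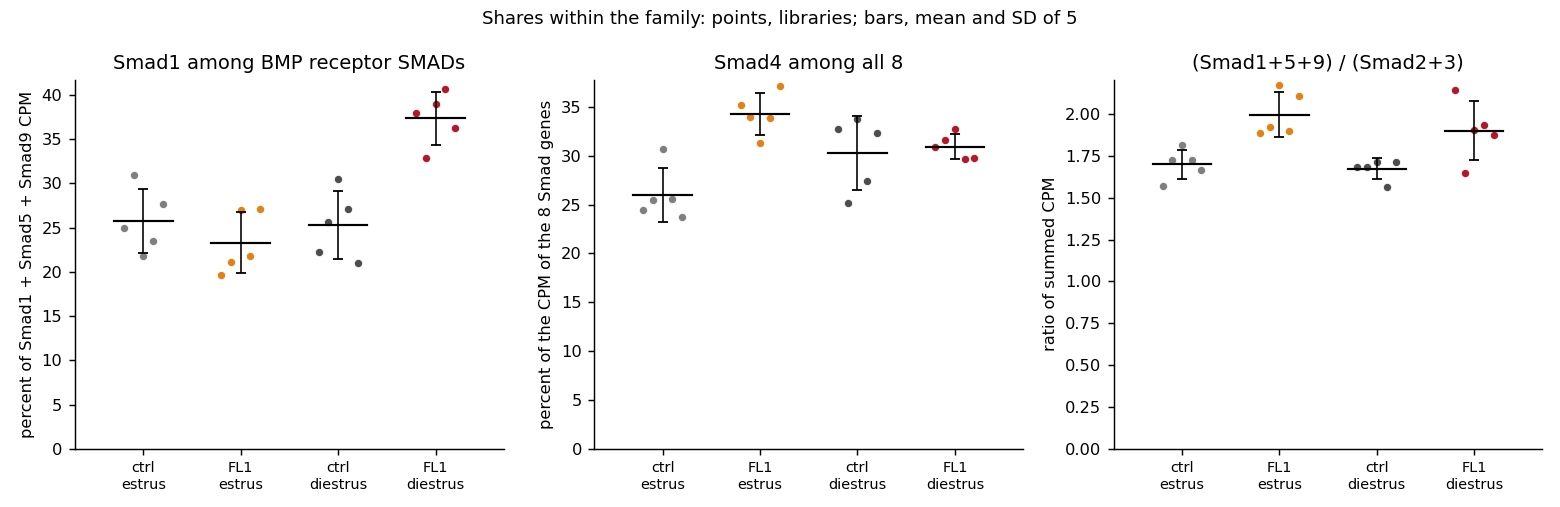
Shares within the Smad family per library, by line and stage, with the mean and SD of 5. The left panel gives Smad1 as a percent of the Smad1, Smad5 and Smad9 CPM, where FL1 in diestrus (32.8% to 40.7%) stands above the other groups, the middle panel gives Smad4 as a percent of the CPM of all 8, and the right panel gives the summed CPM of Smad1, Smad5 and Smad9 over that of Smad2 and Smad3.

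Smad2 and Smad3 carry the signals of activin, TGF-beta and GDF9, and of the pair only Smad3 passed a test. Smad3 held 104, 94.0, 85.2, 90.0 and 86.0 CPM in ctrl in estrus and 78.6, 85.4, 68.6, 75.6 and 66.5 CPM in FL1 in estrus. In diestrus it held 88.0, 82.7, 81.6, 91.5 and 85.8 CPM in ctrl and 86.2, 89.4, 88.5, 89.5 and 93.6 CPM in FL1. Thus 4 of 5 FL1 libraries in estrus were below every other library, and the fifth, at 85.4 CPM, lay just within the ctrl range. Within FL1, Smad3 was higher in diestrus by a log2FC of 0.26 (SE 0.09, adjusted p = 0.0498), without overlap between the stages. This call is at the edge of the threshold: it was kept in 1 of 10 fits with a library left out, the one without FL1 replicate 2 in estrus, and lost in the other 9 with adjusted p between 0.0566 and 0.118. It was also lost with a filter of at least 1 count in total (adjusted p = 0.0998) and of at least 10 counts in every library (adjusted p = 0.0511), and with the replicate number as a block (adjusted p = 0.0731). Between the lines in estrus the log2FC of Smad3 was -0.30 (SE 0.10, adjusted p = 0.162), and it passed only in 1 fit of all 20 libraries (adjusted p = 0.0427). Smad2 ranged from 19.4 to 38.4 CPM over all libraries with group means of 25.2 to 29.6 CPM, its 4 log2FC lay between -0.20 and 0.23, and every 2 groups overlapped.

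The summed CPM of the BMP-regulated genes over that of Smad2 and Smad3 was 2.00 ± 0.134 in FL1 in estrus and 1.70 ± 0.0887 in ctrl in estrus (SD, n = 5 each). The lowest FL1 library in estrus (1.89) lay above the highest ctrl library in estrus (1.81). In diestrus the ratio was 1.90 ± 0.178 in FL1 and 1.67 ± 0.0624 in ctrl, and the lines overlapped.

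Smad4, the partner of both branches, which like Smad2 and Smad7 lies on chromosome 18, was higher in FL1 in estrus. The ctrl libraries in estrus held 120.2, 131, 147, 121 and 112 CPM and the FL1 libraries in estrus held 184, 182, 153, 153 and 184 CPM, so that the lowest FL1 library stood above the highest ctrl library. In diestrus the ctrl libraries held 162, 115, 170.4, 133 and 177 CPM and the FL1 libraries 172, 161, 197, 173 and 162 CPM, and the lines overlapped. The log2FC between the lines was 0.44 in estrus (SE 0.10, 95% interval 0.22 to 0.66, adjusted p = 0.0412) and 0.19 in diestrus (SE 0.11, adjusted p = 0.428), and the difference of the line effect between the stages was -0.25 (SE 0.16, adjusted p = 0.553). The call in estrus was lost in 7 of 10 fits with 1 library left out (without ctrl replicates 1, 2 or 4, or FL1 replicates 1, 2, 4 or 5), with adjusted p between 0.0565 and 0.112 and a log2FC that stayed between 0.40 and 0.50 over all 10. It was also lost with the replicate number as a block (adjusted p = 0.106) and kept in the other 5 alternatives. Smad4 made up 34.3% ± 2.13 of the CPM of the 8 genes in FL1 in estrus and 26.0% ± 2.73 in ctrl in estrus, against 30.9% ± 1.28 and 30.3% ± 3.78 in FL1 and ctrl in diestrus (SD, n = 5 each).

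Of the inhibitory members, Smad7 rose in FL1 from estrus to diestrus. It held 20.02, 18.2, 25.5, 17.2 and 21.4 CPM in FL1 in estrus and 26.8, 29.1, 45.0, 37.3 and 24.7 CPM in FL1 in diestrus. In ctrl it held 25.8, 31.2, 15.3, 19.9 and 17.1 CPM in estrus and 22.1, 31.4, 23.6, 25.5 and 36.4 CPM in diestrus. In FL1 the highest estrus library overlapped the lowest diestrus library, and in ctrl the stages overlapped widely. The log2FC between the stages was 0.67 in FL1 (SE 0.17, adjusted p = 0.0118) and 0.35 in ctrl (SE 0.21, adjusted p = 0.471), and the difference of these was not detected (0.32, SE 0.28, adjusted p = 0.696). The change in FL1 kept its call in all 10 fits with a library left out and in all 6 alternatives.

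Smad6 was lower on average in FL1 in both stages, without passing the test in either. It held 13.8, 14.9, 10.9, 10.0 and 9.69 CPM in ctrl in estrus and 9.42, 7.37, 5.36, 6.36 and 11.8 CPM in FL1 in estrus. In diestrus it held 11.5, 12.1, 12.3, 8.57 and 11.1 CPM in ctrl and 6.46, 9.96, 6.63, 9.79 and 9.01 CPM in FL1. In estrus 4 of 5 FL1 libraries were below every ctrl library, and in diestrus 4 of 5 ctrl libraries were above every FL1 library. The log2FC between the lines was -0.55 in estrus (SE 0.24, adjusted p = 0.267 in edgeR) and -0.41 in diestrus (SE 0.19, adjusted p = 0.277 in edgeR), with 42 to 122 counts per library behind these values.

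**Figure D3:**
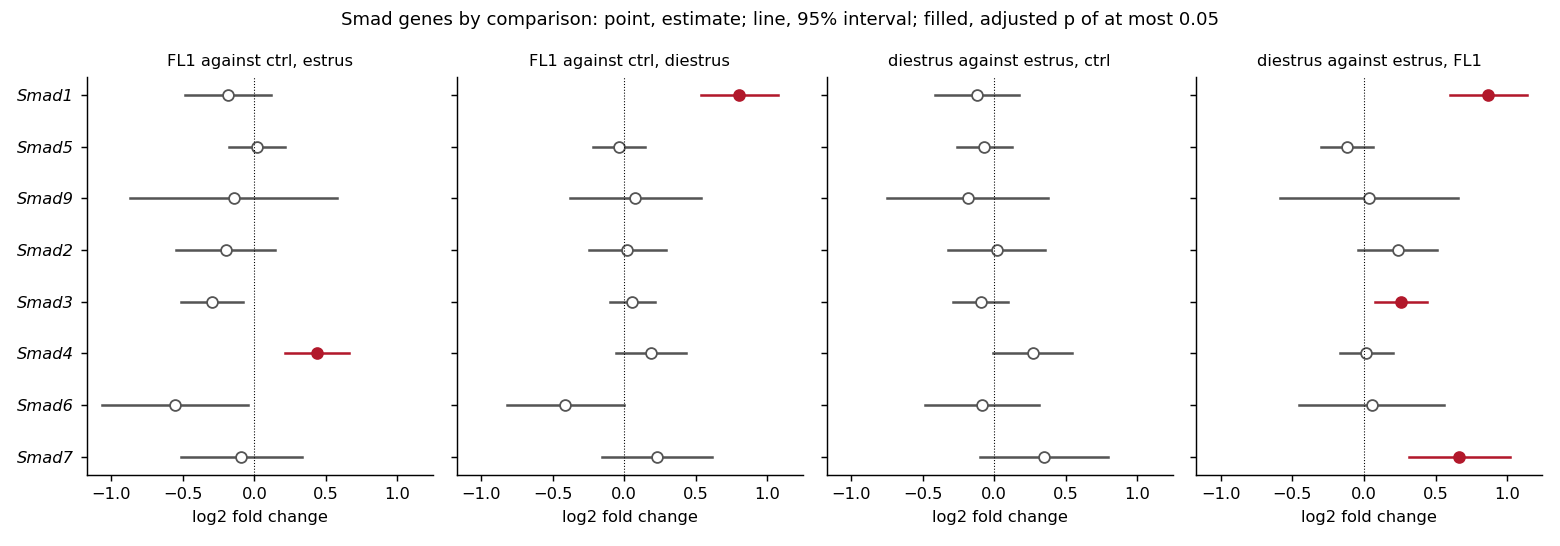
Log2 fold change (horizontal axis) of each Smad gene in the 4 pairwise comparisons, with its 95% interval. Filled red points have an adjusted p of at most 0.05 in edgeR. Smad4 is marked in estrus between the lines, Smad1 in diestrus between the lines, none between the stages in ctrl, and Smad1, Smad3 and Smad7 between the stages in FL1.

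Counted over the family, 1 of 8 Smad genes was changed between the lines in estrus (Smad4, higher), beside 2.33% of the 13374 genes tested (1.07% higher), and 1 of 8 in diestrus (Smad1, higher), beside 4.11% of 13259 (2.29% higher). Libraries of the lines did not overlap for 1 of 8 in each stage, beside 4.88% of all genes in estrus and 5.45% in diestrus. Between the stages, 0 of 8 were changed in ctrl by edgeR, beside 2.85% of 13334 genes, with 0 at an unadjusted p under 0.05, beside 15.4%, and 0 by DESeq2, and 0 of 8 did not overlap, beside 4.51%. In FL1, 3 of 8 were changed between the stages, all higher in diestrus, beside 15.9% of 13350 genes (8.49% higher), and 2 of 8 did not overlap, beside 12.2%. For the line-by-stage interaction 0 of 8 passed in edgeR, beside 0.0565% of 14154 genes, with 2 (Smad1 and Smad3) at an unadjusted p under 0.05, beside 11.7%, and 1 by DESeq2. There DESeq2 called 152 genes in all, against 8 in edgeR. The median log2FC of the 8 genes was -0.17 between the lines in estrus and 0.07 in diestrus, and -0.08 between the stages in ctrl and 0.14 in FL1, where the median of all tested genes lay between -0.01 and 0.01. The sum over the 8 genes was 485 ± 17.9 CPM in ctrl in estrus, 499 ± 32.5 in FL1 in estrus, 498 ± 32.9 in ctrl in diestrus and 559 ± 35.0 in FL1 in diestrus (SD, n = 5 each).

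Markers of ovarian cell types moved with some of these results. Between the stages in FL1, where Smad1, Smad3 and Smad7 rose, 6 of 7 luteal markers, 4 of 4 blood markers, 3 of 5 endothelial markers and 3 of 7 tested granulosa markers also rose, while 3 of 6 tested theca and stroma markers fell and 1 rose. Over the 9 lists 22 of 46 tested markers were changed there, beside 15.9% of 13350 genes (8.49% higher). In the same comparison 1 of 8 oocyte markers (Bmp15) and the 1 tested oviduct marker (Krt7) fell, and no fat or macrophage marker passed. All 8 oocyte markers had a log2FC below 0 there, with a median of -0.36. The summed luteal markers ran from 17873 to 35331 CPM in FL1 in estrus and from 35706 to 46533 CPM in FL1 in diestrus, so the stages did not overlap. The endothelial sum ran from 204 to 273.7 CPM and from 319 to 413 CPM in the same groups, and the theca and stroma sum ran lower, from 1421 to 1906 CPM and from 1033 to 1378 CPM. The blood sum overlapped, with 871 to 1670 CPM in FL1 in estrus and 1210 to 3283 CPM in FL1 in diestrus, as did the granulosa sum, with 2382 to 3735 CPM and 2577 to 3933 CPM. In ctrl, where no Smad gene changed between the stages, 1 of 7 luteal markers (Lhcgr, the LH receptor), 1 of 7 tested granulosa markers and 1 of 6 tested theca and stroma markers rose, and 2 theca and stroma markers and 1 macrophage marker fell. That made 6 of 45 tested markers, beside 2.85% of 13334 genes. The luteal sum ran from 15880 to 39774 CPM in estrus and from 29136 to 50327 CPM in diestrus. Between the lines in diestrus, where Smad1 was higher in FL1, 1 of 7 luteal markers (Lhcgr, log2FC 1.43, SE 0.32, adjusted p = 0.0209), 1 of 7 granulosa markers (Foxl2, 0.53, SE 0.11, adjusted p = 0.0132) and 1 of 5 macrophage markers (Cd68, 0.79, SE 0.21, adjusted p = 0.0467) were higher and none of the other lists had a called member in edgeR. These 3 of 45 tested markers stand beside 4.11% of 13259 genes. By the paper's qPCR in diestrus, Lhcgr was also higher in FL1 and Foxl2 was not. The other 4 macrophage markers had a log2FC below 0 (Csf1r -0.54, Cd14 -0.45, Adgre1 -0.37 and C1qa -0.02), and DESeq2 also called Csf1r. The summed luteal markers overlapped between the lines there (29136 to 50327 CPM in ctrl and 35706 to 46533 CPM in FL1), and so did the endothelial sum (278 to 404 CPM in ctrl and 319 to 413 CPM in FL1), the granulosa sum (2561 to 3984 CPM and 2577 to 3933 CPM) and the macrophage sum (68.7 to 118 CPM and 83.0 to 98.3 CPM). The luteal sum rests mostly on Akr1c18, Cyp11a1, Hsd3b1 and Star. Their means over the 20 libraries were 10631, 8794, 6244.5 and 4573 CPM, and that of Lhcgr was 243 CPM. Akr1c18 and Cyp11a1 had log2FC of -0.46 and 0.28 between the lines in diestrus, neither called in edgeR. Between the lines in estrus, where Smad4 was higher, 0 of 46 tested members of the 9 marker lists were changed by edgeR, beside 2.33% of 13374 genes. A log2FC above 0 was found for 8 of 8 oocyte, 6 of 7 tested granulosa, 4 of 4 blood and 2 of 2 tested fat markers. It was found for 3 of 7 luteal, 2 of 5 macrophage, 1 of 2 tested oviduct, 1 of 6 tested theca and stroma and 0 of 5 endothelial markers. The lines overlapped in the oocyte sum (156 to 334 CPM in ctrl and 222 to 533 CPM in FL1) and in the endothelial sum (245 to 424 CPM and 204 to 273.7 CPM). In edgeR 8 of the 46 had an unadjusted p under 0.05. Over the 13374 genes at least 1759 did, since Smad6, at 0.0351 in edgeR, held that rank by p. DESeq2 called 3 of the markers, and over all genes it called 670 against 311 in edgeR. The part of cell composition in the Smad results was not tested.

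Among the genes whose log2 CPM ran most like Smad1 over the 20 libraries, out of 14153, were the insulin receptor gene Insr (Pearson r = 0.892), Arfgef1, an exchange factor for ARF GTPases (0.862), Dynll2, a dynein light chain (0.859), and Fzd4, a frizzled receptor (0.859). With the group means removed, r was 0.667 for Insr, 0.768 for Arfgef1, 0.610 for Dynll2 and 0.470 for Fzd4. The genes were picked by r over the same 20 libraries, which includes this part. The likeness among animals of the same group was therefore not tested. Fzd4 held 77.2 ± 13.2 CPM in FL1 in diestrus and 41.3 to 42.4 CPM on average in the other groups, and Insr held 45.7 ± 6.51 CPM and 28.9 to 33.1 CPM. Among the Smad genes themselves, r over the 20 libraries ran from -0.505 for Smad5 and Smad9 to 0.599 for Smad1 and Smad7, and with the group means removed these became -0.559 and 0.416. These values share libraries and scaling and are given as descriptions.

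Beside the Smad genes, 81 genes of the pathway were followed in 5 lists: 14 receptors, 21 ligands and ligand binders, 15 genes of SMAD turnover and dephosphorylation, 21 SMAD anchors, transport factors and nuclear partners, and 12 target genes, with Skil and Bambi on a pair of lists each. Of those tested in edgeR, 1 of 76 was changed between the lines in estrus, beside 2.33% of all genes, 3 of 75 in diestrus, beside 4.11%, and 5 of 76 between the stages in ctrl, beside 2.85%. DESeq2 called 2, 5 and 9 of them, adding Inhba in estrus, Ccn2 and Skil in diestrus and Amhr2, Bmp2, Grem1 and Skil between the stages in ctrl. Over all genes DESeq2 called 670, 892 and 768 in these comparisons, against 311, 545 and 380 in edgeR. In FL1, 20 of 77 were changed in edgeR between the stages, 12 higher and 8 lower in diestrus, which is 26.0% beside 15.9% of all genes. The median log2FC between the stages in FL1 was 0.15 over 14 receptors, -0.07 over 19 tested ligands and binders, 0.21 over 15 turnover genes, 0.11 over 19 tested anchors and partners and -0.20 over 12 target genes, against -0.0071 over all genes. For the interaction 0 of 77 passed in edgeR, with 11 at an unadjusted p under 0.05, beside 11.7% of all genes, and 1 (Tgfbi) passed by DESeq2. Over all genes DESeq2 called 152 for the interaction, against 8 in edgeR.

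Between the lines in diestrus, 1 of 14 receptors and 1 of 11 tested target genes were higher in FL1, and 1 of 18 tested ligands and binders was lower. Tgfbr1, the type I receptor of TGF-beta, which phosphorylates SMAD2 and SMAD3, held 57.4, 60.3, 53.3, 68.7 and 70.1 CPM in ctrl and 135, 89.4, 109.8, 101 and 83.3 CPM in FL1. Tgfbi, a matrix protein induced by TGF-beta, held 52.1, 49.4, 68.3, 65.4 and 41.1 CPM in ctrl and 112, 86.4, 105, 106 and 80.3 CPM in FL1. For both genes every FL1 library stood above every ctrl library in diestrus. The log2FC was 0.74 for Tgfbr1 (SE 0.13, adjusted p = 0.00487) and 0.83 for Tgfbi (SE 0.14, adjusted p = 0.00414), and both kept their call with any 1 library left out. In estrus the same log2FC were 0.09 (SE 0.13) for Tgfbr1 and -0.11 (SE 0.16) for Tgfbi, and neither difference between the stages passed in edgeR (adjusted p = 0.177 and 0.114), while that of Tgfbi passed by DESeq2. Grem1, a secreted antagonist of BMP, was lower in FL1 in diestrus, with 10.5, 22.2, 12.3, 14.3 and 70.6 CPM in ctrl and 3.01, 6.82, 7.10, 7.38 and 8.85 CPM in FL1. Its log2FC was -1.97 (SE 0.49, adjusted p = 0.0370), and -1.16 (adjusted p = 0.0414) without ctrl replicate 5. The call was lost without ctrl replicate 2 or without any 1 of the 5 FL1 libraries, with adjusted p of 0.0545 to 0.0880. In estrus, Zeb2, a nuclear repressor that binds SMADs, was lower in FL1 by a log2FC of -0.49 (SE 0.12, adjusted p = 0.0421). It held 121, 160, 146, 149 and 166 CPM in ctrl and 82.4, 107.8, 121, 109 and 107 CPM in FL1. That call was lost in 8 of 10 fits with a library left out, all but those without ctrl replicate 1 or FL1 replicate 3, with adjusted p of 0.0528 to 0.0962.

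**Figure D4:**
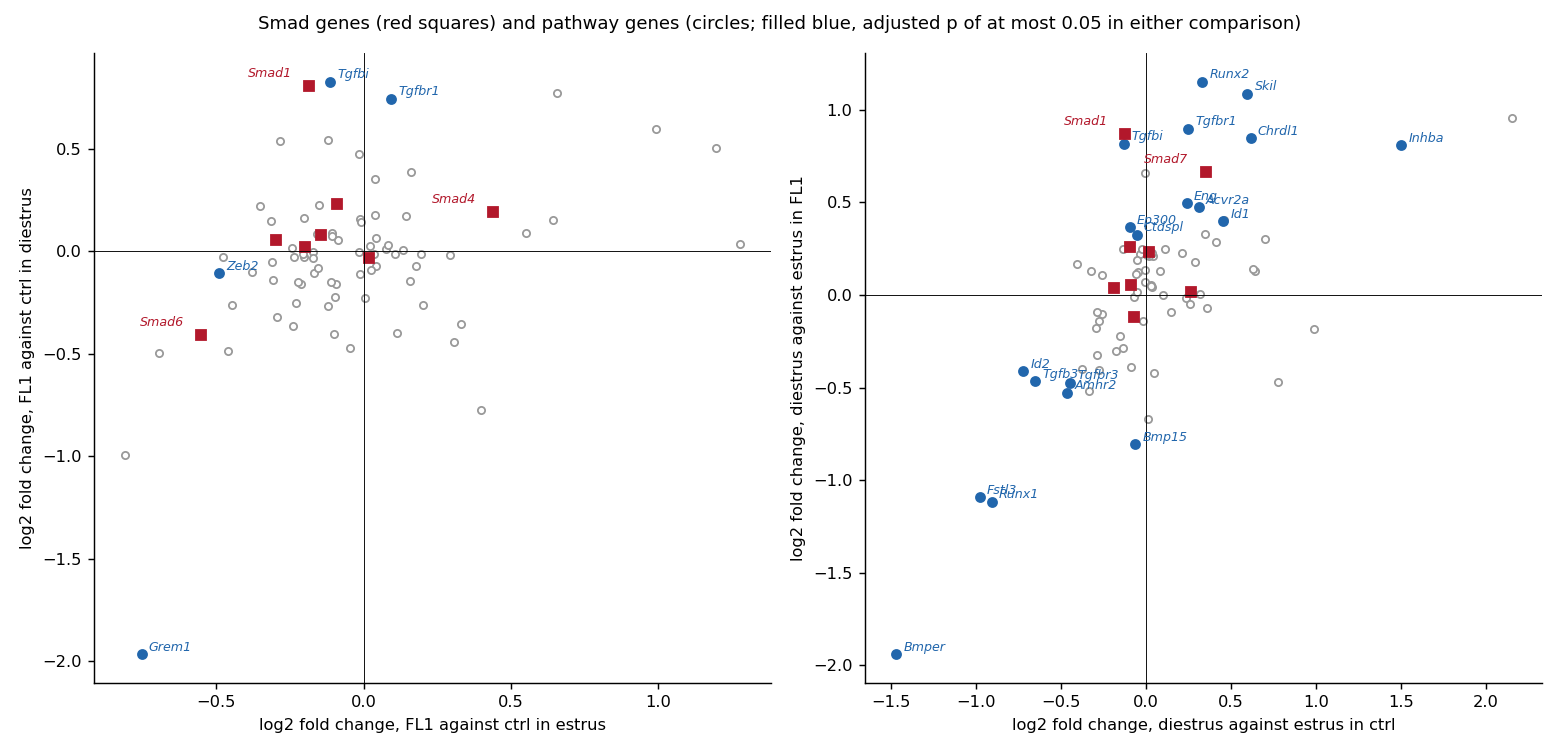
Log2 fold changes of the 8 Smad genes (red squares) and of the reported pathway genes tested in both comparisons (circles, filled blue where the adjusted p was at most 0.05 in either). The left panel sets FL1 against ctrl in estrus (horizontal) and in diestrus (vertical), with Smad1, Tgfbi and Tgfbr1 between -0.19 and 0.09 in estrus and between 0.74 and 0.83 in diestrus. The right panel sets diestrus against estrus in ctrl (horizontal) and in FL1 (vertical).

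Between the stages in FL1, the receptors Tgfbr1 (log2FC 0.90, SE 0.12), Eng (0.50, SE 0.15), a co-receptor of endothelial cells, and Acvr2a (0.47, SE 0.16), a receptor of activin, were higher in diestrus, while Tgfbr3 (-0.47, SE 0.11), a co-receptor of TGF-beta and inhibin, and Amhr2 (-0.53, SE 0.11), the receptor of anti-Müllerian hormone, were lower. Of the ligands and binders, Inhba (0.81, SE 0.22), a subunit of activin and inhibin, and the BMP antagonists Nog (2.02, SE 0.53) and Chrdl1 (0.85, SE 0.26) were higher. The oocyte factor Bmp15 (-0.81, SE 0.24), the ligand Tgfb3 (-0.47, SE 0.13), the activin binder Fstl3 (-1.09, SE 0.14) and the BMP binder Bmper (-1.94, SE 0.23) were lower. Nog rested on low levels of 0.618 ± 0.520 CPM in estrus and 2.43 ± 0.951 CPM in diestrus (SD, n = 5 each). In the intracellular lists, the SMAD phosphatase Ctdspl (0.32, SE 0.10), the corepressor Skil (1.09, SE 0.15), the coactivator Ep300 (0.37, SE 0.09) and the SMAD partner Runx2 (1.15, SE 0.20) were higher and its paralogue Runx1 (-1.12, SE 0.10) was lower. Of 12 target genes, Id1 (0.40, SE 0.12), Skil and Tgfbi (0.81, SE 0.11) were higher, and 3 of the 12 had a positive log2FC. With a library left out, 12 of these 20 calls held in all 10 fits, and among the others those of Acvr2a, Eng, Id1, Chrdl1, Bmp15, Ctdspl and Inhba were lost in 3 to 8 of 10, with adjusted p of 0.0511 to 0.118. In the fit of all 20 libraries together, Tgfbr3, Bmp15, Inhba, Id1 and Chrdl1 lost their calls, with adjusted p of 0.0603 to 0.118. Acvr2a lost its call with both other filters (adjusted p = 0.0653 and 0.0504).

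Between the stages in ctrl, where no Smad gene changed, 1 pathway gene was higher in diestrus and 4 were lower. Inhba held 179 ± 94.7 CPM in estrus and 509 ± 168 CPM in diestrus (SD, n = 5 each), a 2.84-fold higher level (SE of the log2FC 0.34, adjusted p = 0.0336). Bmper (-1.47, SE 0.27), Fstl3 (-0.98, SE 0.20), Tgfb3 (-0.65, SE 0.11) and the target gene Id2 (-0.72, SE 0.15) were lower. Bmper and Tgfb3 kept their calls in all 10 fits with a library left out, and Inhba, Fstl3 and Id2 lost theirs in 5, 3 and 3 of 10. With the replicate number as a block these 3 genes also lost their calls, with adjusted p of 0.0917, 0.0502 and 0.0874. Inhba, Bmper, Fstl3 and Tgfb3 were thus called in the same direction in both lines in edgeR. Of the other 16 genes called between the stages in FL1, Nog was not tested in ctrl and the rest did not pass there in edgeR. Not passing is not a difference between the lines. In ctrl the log2FC was 0.45 for Id1, -0.45 for Tgfbr3 and -0.46 for Amhr2, near the values in FL1. It was -0.13 for Tgfbi, -0.05 for Ctdspl and -0.09 for Ep300, opposite in sign to FL1. DESeq2 called Skil and Amhr2 in ctrl as well, and of the 16 only Tgfbi had an interaction that passed, by DESeq2. Among the 2 genes of each list with the largest log2FC in size between the lines in diestrus, those not called there by edgeR included Bmp7 (at 0.501 of its ctrl level, SE of the log2FC 0.34, adjusted p = 0.133), Acvr1c (0.54, SE 0.32, adjusted p = 0.405), Smurf1 (0.17, SE 0.12, adjusted p = 0.513), Tgif2 (0.77, SE 0.28, adjusted p = 0.156) and the target gene Ccn2 (-0.77, SE 0.24, adjusted p = 0.0878), which DESeq2 called.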

How the data were processed

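Ovary RNA was made into QuantSeq forward 3' mRNA-Seq libraries and sequenced on an Illumina HiSeq. Trimmed reads were mapped by STAR against GRCm38 and its Ensembl genes. The authors deposited a table of raw counts for each library, in which each value is the number of unique reads on an Ensembl gene, without normalization, filtering or pooling. The counting tool and its strand setting are not given in the sources used here. The labels' processing notes name STAR and Cuffdiff, and the study tested with DESeq2.

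Everything else was computed from these counts. Symbols and positions came from GENCODE M21, which holds 54809 of the genes and lacks 29. Line in each stage, stage in each line (10 libraries per fit) and their interaction (20 libraries) were tested with edgeR 4.0.16's quasi-likelihood test in R 4.3.3, with TMM scaling and filterByExpr at a minimum count of 10. Adjustment was that of Benjamini and Hochberg over all tested genes. The SE of a log2FC is its size divided by the square root of F. Correlations used log2 CPM with a prior count of 2. The fits were tested on simulated counts. Each library is 1 animal, and a p-value sets a difference between groups against the spread between animals of a group. With 1 FL1 line and 1 ctrl line, variation between lines of the same breeding history was not measured.

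Alternatives were DESeq2's size factors in edgeR, DESeq2 1.42.0, 2 other filters (a total of 1 or more, or 10 or more per library), a replicate block, leaving out single libraries, and 1 fit to the 20 libraries together. Named pathway genes were those with an adjusted p of at most 0.05 in any comparison and, per list, the 2 with the largest log2FC between the lines in diestrus. A few genes that meet the rules for naming are not reported here. The 8 genes, the 5 pathway lists and the 9 marker lists (oocyte, granulosa, luteal, theca and stroma, endothelial, macrophage, oviduct, fat and blood) were chosen with earlier results of these data known. Median depth was 6957533 counts per library. Same-numbered libraries did not deviate together (r between -0.0953 and 0.126 over the pairs).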

Additional observations from a re-analysis of the deposited data

Results flagged for a closer look

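Of 88 sets of 5 libraries checked for a library far from the others (the 8 Smad genes in each group, and the pathway genes in the groups where they were called), 1 was marked, where chance marks about 1 in 20. Grem1 was at 70.55 CPM in ctrl replicate 5 in diestrus, against 10.5 to 22.2 CPM in the other 4 libraries of the group, and the gap was 0.805 of the whole range.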

How the results depend on the processing

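The number of Smad genes called between the lines in estrus was 1, and it became 2 in 1 fit of all 20 libraries and 0 with the replicate block. For the interaction it went from 0 to 1 with DESeq2 and to 1 with a filter of at least 1 count in total. With 1 library left out, it ranged from 0 to 1 in estrus, from 1 to 1 in diestrus, from 0 to 0 between the stages in ctrl, from 2 to 3 in FL1 and from 0 to 1 for the interaction. Smad1 in diestrus and between the stages in FL1, and Smad7 between the stages in FL1, kept their direction and their call under every alternative run.

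Over all genes, 311 were called between the lines in estrus and 670 with DESeq2, 477 with at least 1 count in total and 531 in 1 fit of 20 libraries, with 175 to 418 when a library was left out. In diestrus the 545 became 892 with DESeq2 and 846 with at least 1 count in total, with 349 to 594 when a library was left out. Between the stages in ctrl the 380 became 768 with DESeq2 and 909 in 1 fit of 20 libraries, with 176 to 516 when a library was left out. In FL1 the 2123 ranged from 1582 to 2316 when a library was left out, and for the interaction the 8 became 152 with DESeq2 and 17 with at least 1 count in total, with 0 to 15 when a library was left out. The count fell by over 1.5 times without FL1 replicate 1, 2, 4 or 5 between the lines in estrus, without FL1 replicate 4 in diestrus, and between the stages in ctrl without replicate 2 or 4 in estrus or 2, 3 or 4 in diestrus. The cause was not tested.

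The sign turned in some fits with a library left out only for members that had passed no test in that comparison. Between the lines in estrus, the log2FC ranged from -0.038 to 0.053 for Smad5, -0.20 to 0.067 for Smad7 and -0.37 to 0.084 for Smad9. In diestrus it ranged from -0.052 to 0.072 for Smad2, -0.070 to 0.017 for Smad5 and -0.020 to 0.17 for Smad9. Between the stages in ctrl it ranged from -0.052 to 0.14 for Smad2, -0.14 to 0.0077 for Smad6 and -0.33 to 0.044 for Smad9, and in FL1 from -0.033 to 0.044 for Smad4, -0.070 to 0.24 for Smad6 and -0.17 to 0.25 for Smad9. For the interaction it ranged from -0.087 to 0.0040 for Smad5 and -0.0030 to 0.44 for Smad9.

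Same-numbered libraries are different animals and did not deviate together, so the replicate number is no pairing. With it as a block, 230 genes were called between the lines in estrus, 498 in diestrus, 259 between the stages in ctrl, 2020 in FL1 and 12 for the interaction. Among the members, the block ended the calls of Smad4 in estrus and of Smad3 between the stages in FL1, and among the pathway genes those of Inhba, Fstl3 and Id2 between the stages in ctrl and of Acvr2a, Chrdl1 and Id1 in FL1. Nog could not be fitted between the stages in FL1 with at least 10 counts in every library. Smad9 and Smad6, with at most 82 and 122 counts per library, limit what the depth can show.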
